A study of Mus musculus with 8 samples.

Results

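*Trp53*, the gene of the transcription factor p53, and 9 of its direct target genes were followed across 4 genotypes of mouse ES cells. The 10 genes (*Trp53*, *Trp53cor1*, *Cdkn1a*, *Mdm2*, *Ccng1*, *Trp53inp1*, *Bbc3*, *Bax*, *Zmat3* and *Phlda3*) were chosen by name as members of the pathway, and found by their GENCODE M21 symbols among the 48440 genes listed in the count files. All 10 passed the filter on low counts that left 17049 genes for testing.

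MK6 cells, which are ES cells from C57BL/6J mice, gave RNA for sequencing on day 1 of differentiation in culture, with 2 libraries per genotype and 24618587 to 28445952 reads on genes per library. Wild-type cells carry no edit. Cells labelled Tbxt delE6/delE6 lack exon 6 of *Tbxt*, the gene of the T-box factor Brachyury, on both alleles, and cells labelled Tbxt delE6/+ lack it on 1 allele. Cells labelled Tbxt Insert ASAY, here insASAY, carry the human AluSx1 and AluY elements in the introns on either side of that exon, on both alleles according to the study's methods. All edited lines were made with CRISPR and went through drug selection and single-cell cloning. The exon deletions were made in feeder-free culture under blasticidin, whereas the insertion was made on feeder cells with puromycin and then ganciclovir, so the effect of an edit and that of the history of its line cannot be told apart. The delE6/delE6 libraries came from different clones. For the other lines the sources do not say whether the replicates were separate clones, so that the p-values measure the spread between these libraries.

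p53 is a tetrameric transcription factor that is kept low by constant degradation and accumulates when the cell is stressed, chiefly after DNA damage. It binds a response element made of a pair of short half-sites and activates genes that halt the cell cycle, repair DNA or drive apoptosis, as well as *Mdm2*, whose product marks p53 for destruction and so closes a feedback loop. ES cells are known for abundant p53 and for a readiness to undergo apoptosis, and p53 is controlled there mostly as a protein, which RNA counts do not measure.

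The cells carried the markers of their label. The summed level of 8 ES cell markers, in reads scaled to the same library size (CPM, with TMM-scaled totals), was 1400 to 1450 in wild-type, 941 to 1100 in delE6/delE6, 1100 to 1150 in delE6/+ and 1110 to 1160 in insASAY libraries. Against wild-type, 4 of these 8 genes fell and none rose in delE6/delE6 cells, 5 fell and 2 rose in delE6/+ cells, and 2 fell in insASAY cells. Of all tested genes, 6.59%, 6.89% and 9.85% fell and 6.12%, 6.6% and 11.5% rose in these lines. *Nanog* and *Dppa5a*, both expressed in naive ES cells, fell in all 3 lines, *Dppa5a* from 544 ± 23.1 CPM to 200 ± 43.2, 182 ± 1.72 and 270 ± 25.6 (SD, n = 2) in delE6/delE6, delE6/+ and insASAY cells. *Zfp42*, another of the 8, did not follow them. It went from 29.1 ± 0.511 CPM to 32.3 ± 0.407, 22.4 ± 0.458 and 39.7 ± 0.707 in the same lines, with no difference from wild-type past both thresholds. *Tdgf1* fell from 46.5 ± 1.19 to 9.76 ± 1.06 CPM in delE6/+ cells, and *Lin28a* rose there from 292 ± 8.84 to 513 ± 34.6 CPM. The summed level of 10 fibroblast (feeder) markers was 104 to 118 CPM in wild-type, 76.8 to 77.9 in delE6/delE6, 121 to 134 in delE6/+ and 62.4 in both insASAY libraries, with *Lum* at 0 to 6 and *Postn* at 0 to 2 reads per library. Of the 7 of these markers that were tested, 3 fell in delE6/delE6, 6 fell in insASAY, and 1 fell and 3 rose in delE6/+ cells, beside the same shares of all tested genes. *Col3a1* fell in all 3 lines but stood at only 2 to 18 reads per library, *Col1a1* and *Col5a1* fell in insASAY cells to 5.22 ± 1.43 and 37.4 ± 0.172 CPM, and *Fbln2* rose to 49.1 ± 2.43 CPM in delE6/+ cells and fell in the others. In bulk RNA, fewer cells of a type and less RNA per cell cannot be told apart, and the part of these shifts in the p53 genes was not tested.

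*Tbxt* itself was counted at 47 and 42 reads in wild-type, 26 and 22 in delE6/delE6, 39 and 54 in delE6/+ and 30 and 29 in insASAY libraries. Against wild-type it passed the test only in delE6/delE6 cells, as lower (log2 fold change -0.81 ± 0.277 SE, adjusted p = 0.036, edgeR's quasi-likelihood test with Benjamini-Hochberg adjustment, as for all adjusted p-values here). Between edited lines, *Tbxt* was higher in delE6/+ than in delE6/delE6 cells (0.98 ± 0.274, adjusted p = 0.0101). It was lower in insASAY than in delE6/+ cells (-0.76 ± 0.264, adjusted p = 0.0265). Counts per gene do not separate transcripts with and without exon 6, so these values do not check the labels.

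The p53 genes were well expressed, except for the long non-coding RNA. Per kilobase of annotated exon, *Ccng1* stood highest in wild-type cells (117 ± 2.08 CPM per kb, SD, n = 2), above *Cdkn1a* (68.2 ± 1.5), *Bax* (49.7 ± 2.21), *Bbc3* (46.8 ± 0.864), *Trp53inp1* (40.7 ± 1.52), *Mdm2* (40.6 ± 0.517), *Phlda3* (39.2 ± 0.0317), *Trp53* (27.2 ± 0.827) and *Zmat3* (15.8 ± 0.452). In this order *Trp53inp1* did not differ from *Mdm2* or *Phlda3*, nor *Bax* from *Bbc3*, by more than the sum of their SDs. *Trp53cor1* came last at 0.28 ± 0.0269 CPM per kb. Among 16999 genes ranked by this measure, 2.29% stood above *Ccng1*, 4.16% above *Cdkn1a*, 11.8% above *Trp53* and 88.5% above *Trp53cor1*. The order was not the same in each line. In insASAY cells *Bbc3* stood at 20 ± 1.53 CPM per kb, below *Trp53* (39.4 ± 0.424) and above only *Zmat3* (11.2 ± 0.564) and *Trp53cor1* (1.01 ± 0.0445), and in delE6/+ cells *Mdm2* (25.4 ± 1.86) stood level with *Trp53* (25.9 ± 0.574).

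**Figure D1:**
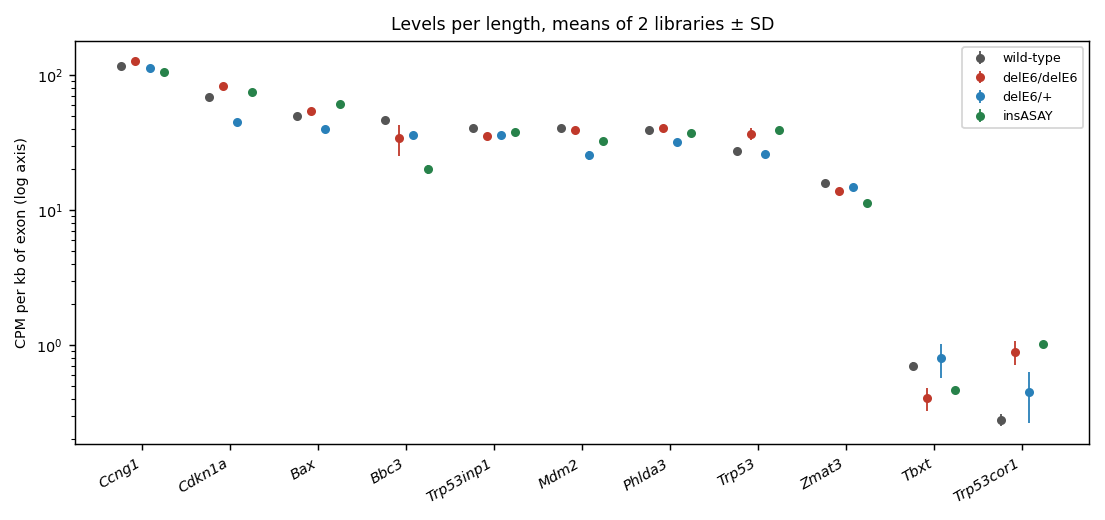
Mean level of the p53 genes and *Tbxt* in CPM per kilobase of exon (log axis), with the SD of 2 libraries, coloured by genotype and ordered by the wild-type level. *Ccng1* leads at 117 CPM per kb in wild-type cells and *Trp53cor1* comes last at 0.28, and *Bbc3* of insASAY cells lies at 20, apart from the other genotypes.

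A gene was called when its adjusted p was under 0.05 and its log2 fold change past 0.5 in size. In delE6/delE6 cells 1 of the 10 genes was called against wild-type, *Trp53cor1*, which rose, where 12.7% of all tested genes were called. In delE6/+ cells 2 were called, *Cdkn1a* and *Mdm2*, and both fell, against 13.5% of all genes (6.6% higher and 6.89% lower). In insASAY cells 4 were called against 21.3% of all genes. *Trp53* and *Trp53cor1* rose and *Bbc3* and *Zmat3* fell, against 11.5% of all genes higher and 9.85% lower. With adjusted p alone, 7, 6 and 8 of the 10 genes passed in delE6/delE6, delE6/+ and insASAY cells, where 35.4%, 31.6% and 47.3% of all genes did. The median log2 fold change of the 10 genes was 0.08, -0.24 and -0.09 in these lines, beside -0.01, -0.00 and -0.01 for all tested genes. All 3 comparisons share the same wild-type libraries.

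**Figure D2:**
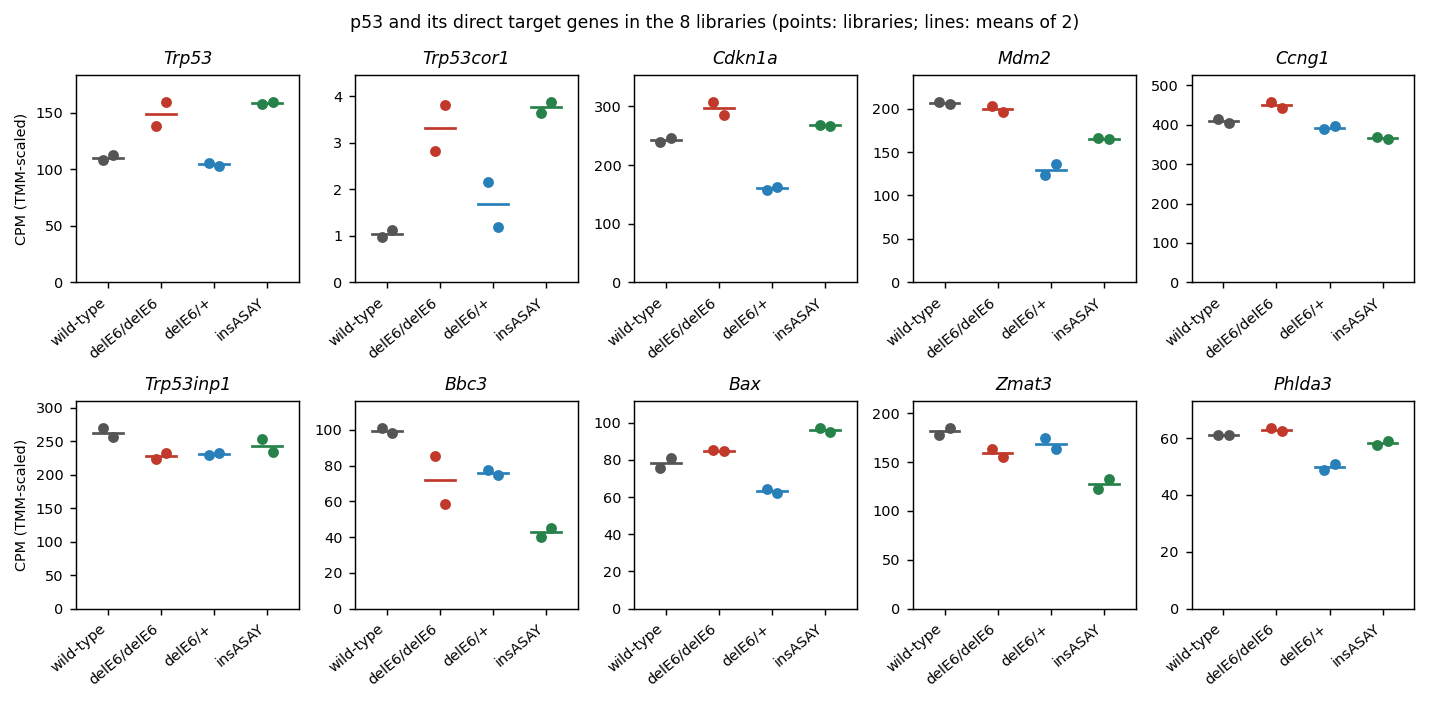
Level of each p53 gene in CPM with TMM-scaled library sizes (vertical axis from 0), with 1 point per library and a line at the mean of the 2 libraries of each genotype. *Cdkn1a* and *Mdm2* are lowest in delE6/+ cells, at 160 and 129 CPM on average, *Bbc3* and *Zmat3* are lowest in insASAY cells, and the libraries of *Bbc3* in delE6/delE6 cells lie apart, at 85.5 and 58.7 CPM.

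*Trp53* (chr11:69580359-69591873, plus strand, GRCm38) encodes p53. Its level was 108 and 113 CPM in the wild-type libraries, 138 and 160 in delE6/delE6, 106 and 103 in delE6/+ and 158 and 160 in insASAY libraries. The insASAY and delE6/delE6 libraries all lay above the other 4, and the delE6/delE6 range reached the insASAY range. The rise of 1.45-fold in insASAY cells was called (log2 fold change 0.53 ± 0.0623 SE, adjusted p = 2.77e-05). The 1.35-fold higher level in delE6/delE6 cells passed the adjusted p (0.000314) but not the fold threshold (log2 fold change 0.44 ± 0.0625), and the difference in delE6/+ cells did not pass (-0.07 ± 0.0633, adjusted p = 0.412). Without wild-type replicate 1 the insASAY value was 0.50 and was no longer called, and without delE6/delE6 replicate 1 the delE6/delE6 value was 0.54 and was called (0.32 and not called without replicate 2). The processed pseudogene *Trp53-ps* held 1 to 3 reads per library.

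*Mdm2* (chr10:117688875-117710758, minus strand) encodes the ubiquitin ligase that targets p53. It was read at 208 and 205 CPM in wild-type, 203 and 196 in delE6/delE6, 123 and 136 in delE6/+ and 166 and 165 in insASAY libraries. The delE6/+ libraries were the lowest, the insASAY libraries lay next, and the other 4 stood together. In delE6/+ cells *Mdm2* fell 1.6-fold (log2 fold change -0.67 ± 0.0524 SE, adjusted p = 1.09e-06). In insASAY cells it was 1.25-fold lower with adjusted p = 0.000286, short of the fold threshold, and in delE6/delE6 cells the log2 difference was -0.05 ± 0.0516 (adjusted p = 0.491). The level of *Mdm2* was thus lower than wild-type in the line with the highest mean *Trp53* level and also in the line whose *Trp53* level did not pass the test.

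*Cdkn1a* (chr17:29090976-29100727, plus strand) encodes p21, the cyclin-dependent kinase inhibitor through which p53 arrests the cell cycle. Its levels were 239 and 246 CPM in wild-type, 308 and 285 in delE6/delE6, 157 and 163 in delE6/+ and 269 and 267 in insASAY libraries. No 2 genotypes overlapped, and delE6/+ cells alone were below wild-type. *Cdkn1a* fell 1.51-fold in delE6/+ cells (log2 fold change -0.60 ± 0.0489 SE, adjusted p = 1.76e-06). It was 1.22-fold higher in delE6/delE6 (adjusted p = 0.000735) and 1.11-fold higher in insASAY cells (adjusted p = 0.0235), both below the fold threshold.

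A promoter window of *Cdkn1a* is shown with that of *Ccng1*. Of the 10 promoter windows that RefSeq (GRCm38.p6) gives for 7 of the 10 genes, these alone hold 2 adjoining p53 half-sites with at most 1 mismatch between them. Each window ran from 250 bases before to 50 bases after a start. The half-site is the 10-base p53 consensus, which reads the same on both strands. The C and the G of its core had to match, so mismatches were counted only at its other bases. Such a pair stood in 22 of 32851 RefSeq windows of the mouse genome (0.067%), and in 2 of the 41 windows of 27 other p53 target genes, those of *Rps27l* and *Gtse1*. The 250 bases before the start follow, in the direction of transcription, with the 20 bases of the paired half-sites in capitals (chr17:29090928-29090947 for *Cdkn1a* and chr11:40755462-40755481 on the minus strand for *Ccng1*).
Cdkn1a, chr17:29090729-29090978, plus strand: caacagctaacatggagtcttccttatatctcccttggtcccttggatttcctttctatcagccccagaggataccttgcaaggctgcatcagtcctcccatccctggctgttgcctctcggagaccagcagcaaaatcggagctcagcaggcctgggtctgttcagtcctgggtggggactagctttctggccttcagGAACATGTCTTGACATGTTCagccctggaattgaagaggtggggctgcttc
Ccng1, chr11:40755287-40755536, minus strand: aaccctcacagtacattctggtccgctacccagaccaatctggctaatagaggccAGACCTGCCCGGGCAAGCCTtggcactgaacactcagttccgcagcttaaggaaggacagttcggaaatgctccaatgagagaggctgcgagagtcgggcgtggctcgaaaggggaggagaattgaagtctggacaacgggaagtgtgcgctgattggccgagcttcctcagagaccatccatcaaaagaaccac
The printed window of *Cdkn1a* also held 2 half-sites 12 bases apart with 0 mismatches (chr17:29090906-29090937). The later of them opens the bases in capitals. Such a match, with a gap of 0 to 13 bases, stood in 0.0731% of all windows. In the window of *Bax*, 2 half-sites 1 base apart held 2 mismatches, a match that with a gap of 0 to 13 bases stood in 4.09% of all windows. With the C and G of the core kept, no pair with up to 2 mismatches and that gap stood in the windows of *Trp53*, *Mdm2*, *Bbc3* or *Phlda3*. Pairs with a mismatch in that core were not searched. The other window of *Cdkn1a*, at a start further downstream (chr17:29093769), also held none. Sites further from the start were not searched, and a match of letters does not show binding.

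*Ccng1* (chr11:40748552-40755311, minus strand) encodes cyclin G1, a p53-induced cyclin that recruits phosphatase PP2A to Mdm2. With 414 and 404 CPM in wild-type, 459 and 442 in delE6/delE6, 389 and 397 in delE6/+ and 369 and 365 in insASAY libraries, it varied little. The delE6/delE6 libraries were highest and the insASAY libraries lowest, with no overlap between any genotypes. No difference against wild-type was called: 1.1-fold higher in delE6/delE6 (adjusted p = 0.0209), 1.11-fold lower in insASAY (adjusted p = 0.00813) and 1.04-fold lower in delE6/+ cells (adjusted p = 0.316). Of the followed genes with a paired half-site in a promoter window, *Cdkn1a* was called in delE6/+ cells and *Ccng1* was not. *Rps27l* and *Gtse1*, the other p53 targets with such a pair, were not called there either (log2 fold change -0.32 and -0.17).

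*Trp53cor1* (chr17:29057430-29079179, minus strand), also known as lincRNA-p21, is transcribed away from *Cdkn1a*, with 11797 bases between the 2 starts. It was counted at 27 and 30 reads in wild-type, 70 and 104 in delE6/delE6, 57 and 29 in delE6/+ and 100 and 106 in insASAY libraries. All 4 libraries of the homozygous lines lay above the 4 others, whereas the delE6/+ libraries differed 1.82-fold from each other. It rose 3.19-fold in delE6/delE6 (log2 fold change 1.67 ± 0.273 SE, adjusted p = 0.000685) and 3.59-fold in insASAY cells (1.84 ± 0.267, adjusted p = 0.000125), the largest fold changes among the 10 genes, at the lowest depth. In delE6/+ cells the value was 0.69 ± 0.307 with adjusted p = 0.109, and it was 1.04 and called without delE6/+ replicate 2 but 0.18 without replicate 1 (adjusted p = 0.772). Exons annotated on the other strand overlap those of *Trp53cor1*, and reads of that strand were counted apart. *Trp53cor1* and *Cdkn1a* lie 20.6 megabases from *Tbxt* on chromosome 17. Of the 240 tested genes within 5 megabases of *Trp53cor1*, 9 rose and 22 fell in delE6/delE6, 3 rose and 22 fell in delE6/+ and 24 rose and 25 fell in insASAY cells. Over all tested genes, 6.12% rose and 6.59% fell in delE6/delE6, 6.6% and 6.89% in delE6/+ and 11.5% and 9.85% in insASAY cells.

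*Bbc3* (chr7:16308393-16318205, plus strand) encodes PUMA, a BH3-only protein by which p53 starts apoptosis. It stood at 101 and 98.1 CPM in wild-type, 85.5 and 58.7 in delE6/delE6, 77.3 and 74.8 in delE6/+ and 40.3 and 44.9 in insASAY libraries. Every edited library was below both wild-type libraries, and the insASAY libraries were the lowest. The fall of 2.34-fold in insASAY cells was the largest fall among the 10 genes (log2 fold change -1.22 ± 0.124 SE, adjusted p = 1.03e-05). The level was 1.38-fold lower in delE6/delE6 (adjusted p = 0.00907) and 1.31-fold lower in delE6/+ cells (adjusted p = 0.025), neither past the fold threshold. The 2 delE6/delE6 clones differed 1.46-fold from each other, and the value of this line on the log2 scale was -0.76 and called without replicate 1 but -0.22 without replicate 2.

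*Bax* (chr7:45461697-45466898, minus strand) encodes the pore-forming protein on which BH3-only proteins act. It was read at 75.8 and 80.8 CPM in wild-type, 85.1 and 85.0 in delE6/delE6, 64.2 and 62.1 in delE6/+ and 97.2 and 95.2 in insASAY libraries. The delE6/+ libraries were below wild-type and the others above it, with no overlap. Against wild-type it was 1.23-fold higher in insASAY (adjusted p = 0.000452) and 1.24-fold lower in delE6/+ cells (adjusted p = 0.000654), both under the fold threshold. In insASAY cells *Bax* and *Bbc3* thus stood on opposite sides of their wild-type levels.

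*Trp53inp1* (chr4:11156431-11174379, plus strand) encodes a p53-induced nuclear protein with a part in apoptosis and autophagy, and *Phlda3* (chr1:135766119-135769136, plus strand) a pleckstrin-homology protein that restrains Akt. *Trp53inp1* ran from 256 to 270 CPM in wild-type and from 224 to 253 CPM over the 6 edited libraries, all of them lower than wild-type. Its log2 fold changes were -0.21 ± 0.0499 in delE6/delE6 (adjusted p = 0.00613), -0.19 ± 0.0499 in delE6/+ (adjusted p = 0.0111) and -0.11 ± 0.0498 in insASAY cells (adjusted p = 0.0793). *Phlda3* stood at 61.1 CPM in both wild-type libraries, 63.6 and 62.5 in delE6/delE6, 48.7 and 50.8 in delE6/+ and 57.5 and 58.9 in insASAY libraries. Only its delE6/+ difference passed the adjusted p, at 1.23-fold lower (adjusted p = 0.00118). Neither gene was called in any of the 6 comparisons.

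*Zmat3* (chr3:32334792-32366014, minus strand) encodes an RNA-binding zinc finger protein that acts in p53-dependent growth control. It was read at 178 and 185 CPM in wild-type, 163 and 155 in delE6/delE6, 175 and 163 in delE6/+ and 123 and 133 in insASAY libraries. The insASAY libraries lay below all others. The fall of 1.41-fold there was at the fold threshold (log2 fold change -0.50 ± 0.0545 SE, adjusted p = 1.67e-05) and was not called in 6 of the 15 alternative settings, among them without wild-type replicate 2 (-0.47) and without insASAY replicate 1 (-0.45). In the other lines the values were -0.19 ± 0.0541 (delE6/delE6, adjusted p = 0.0151) and -0.10 ± 0.054 (delE6/+, adjusted p = 0.19). Of 57 tested genes within 5 megabases of *Zmat3*, none rose and 4 fell in delE6/delE6 cells, 6 rose and none fell in delE6/+ cells and 6 rose and 5 fell in insASAY cells. Over all tested genes, 6.12% rose and 6.59% fell in delE6/delE6, 6.6% and 6.89% in delE6/+ and 11.5% and 9.85% in insASAY cells.

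**Figure D3:**
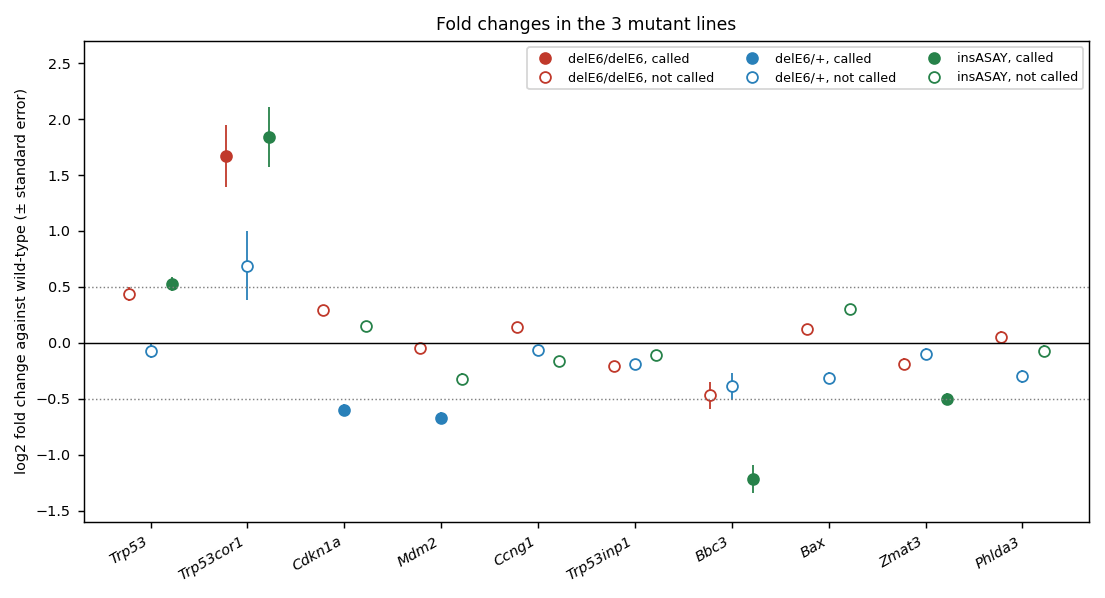
Log2 fold change of each p53 gene against wild-type with its standard error, in delE6/delE6 (red), delE6/+ (blue) and insASAY cells (green). Filled points were called and dotted lines mark the fold threshold of 0.5. *Trp53cor1* reaches 1.84 and *Bbc3* -1.22 in insASAY cells, while *Cdkn1a* and *Mdm2* are called only in delE6/+ cells, at -0.60 and -0.67.

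The edited lines were then compared with each other. Between delE6/+ and delE6/delE6 cells, which differ in the number of alleles without exon 6, 4 of the 10 genes were called beside 22.2% of all tested genes, and all 4 were lower in delE6/+ cells. *Cdkn1a* was 1.85-fold lower (log2 fold change -0.89 ± 0.049 SE, adjusted p = 4.93e-08), *Mdm2* 1.54-fold lower (-0.63 ± 0.0525, adjusted p = 1.26e-06), *Trp53* 1.42-fold lower (-0.51 ± 0.0629, adjusted p = 2.89e-05) and *Trp53cor1* 1.98-fold lower (-0.98 ± 0.254, adjusted p = 0.00643). Without delE6/+ replicate 2 the *Trp53* and *Trp53cor1* values were -0.49 and -0.63 and were not called, and without delE6/delE6 replicate 2 the *Trp53* value was -0.40 and was not called.

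Between insASAY and delE6/delE6 cells 1 of the 10 genes was called beside 5.16% of all genes. *Bbc3* was 1.69-fold lower in insASAY cells (-0.76 ± 0.125, adjusted p = 0.00146), and without delE6/delE6 replicate 1 the value was -0.48 and was not called. *Trp53* and *Trp53cor1* did not pass, with log2 differences of 0.10 ± 0.0617 (adjusted p = 0.32) and 0.17 ± 0.222 (adjusted p = 0.655). Between insASAY and delE6/+ cells 5 of the 10 genes were called beside 27.5% of all genes. *Trp53cor1* was 2.23-fold (adjusted p = 0.00163), *Cdkn1a* 1.68-fold (adjusted p = 1.68e-07), *Trp53* 1.52-fold (adjusted p = 5.48e-06) and *Bax* 1.52-fold higher in insASAY cells (adjusted p = 1.3e-06). *Bbc3* was 1.79-fold lower there (adjusted p = 0.000108).

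A wider list of 33 other p53 targets, all of which were tested, was described in the same way. In delE6/delE6 cells 4 of them fell and none rose, in delE6/+ cells 8 fell and none rose, and in insASAY cells 9 fell and none rose, where 6.59%, 6.89% and 9.85% of all tested genes fell and 6.12%, 6.6% and 11.5% rose. At an adjusted p under 0.05 alone, 5, 3 and 4 further genes were higher and 7, 7 and 13 were lower, and DESeq2 likewise called none higher. Without wild-type replicate 2, 1 of the list rose and 5 fell in delE6/+ cells. The list medians were -0.12, -0.17 and -0.37 on the log2 scale, beside -0.01, -0.00 and -0.01 for all tested genes. The list was written with earlier results of these data known. All 3 comparisons share the same wild-type libraries, so they do not repeat each other independently. *Ephx1*, the microsomal epoxide hydrolase, was called in each line, from 16.3 ± 0.587 CPM in wild-type to 9.3 ± 2.42 in delE6/delE6, 11.2 ± 1.08 in delE6/+ and 7.92 ± 0.286 in insASAY cells. *Tnfrsf10b*, the TRAIL death receptor, fell in insASAY cells from 149 ± 9.24 to 76.3 ± 1.05 CPM (log2 fold change -0.97 ± 0.0652 SE, adjusted p = 1.2e-06). *Plk2*, a polo-like kinase, fell in delE6/+ cells from 108 ± 0.0764 to 63.2 ± 2.33 CPM (-0.77 ± 0.0546, adjusted p = 5.25e-07). *Pltp*, a phospholipid transfer protein, fell in the same line from 139 ± 9.17 to 93.9 ± 0.408 CPM (-0.56 ± 0.0522, adjusted p = 5.15e-06).

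The list held further genes of arrest and apoptosis, 3 of which are given here after their values were seen. *Gadd45a*, a growth-arrest gene, fell most in insASAY cells, from 162 ± 1.32 to 51.2 ± 7.54 CPM (log2 fold change -1.66 ± 0.174 SE, adjusted p = 1.32e-05), and stood at 122 ± 45.1 CPM in delE6/delE6 cells, whose clones lay apart. *Pmaip1*, which encodes the BH3-only protein NOXA, fell in insASAY cells from 114 ± 1.05 to 73.9 ± 1.46 CPM (-0.63 ± 0.0861, adjusted p = 8.26e-05). *Btg2*, an antiproliferative gene, fell both in delE6/+ (-0.57 ± 0.0764, adjusted p = 0.000108) and in insASAY cells (-0.63 ± 0.0763, adjusted p = 3.59e-05). Other genes of the list were higher without being called. *Ckap2* was at 0.45, -0.02 and 0.42 and *Fbxw7* at 0.37, 0.38 and 0.21 on the log2 scale in delE6/delE6, delE6/+ and insASAY cells. Of the 33 genes, 7 were called without delE6/delE6 replicate 1 and 1 without replicate 2 in that line, all lower.

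**Figure D4:**
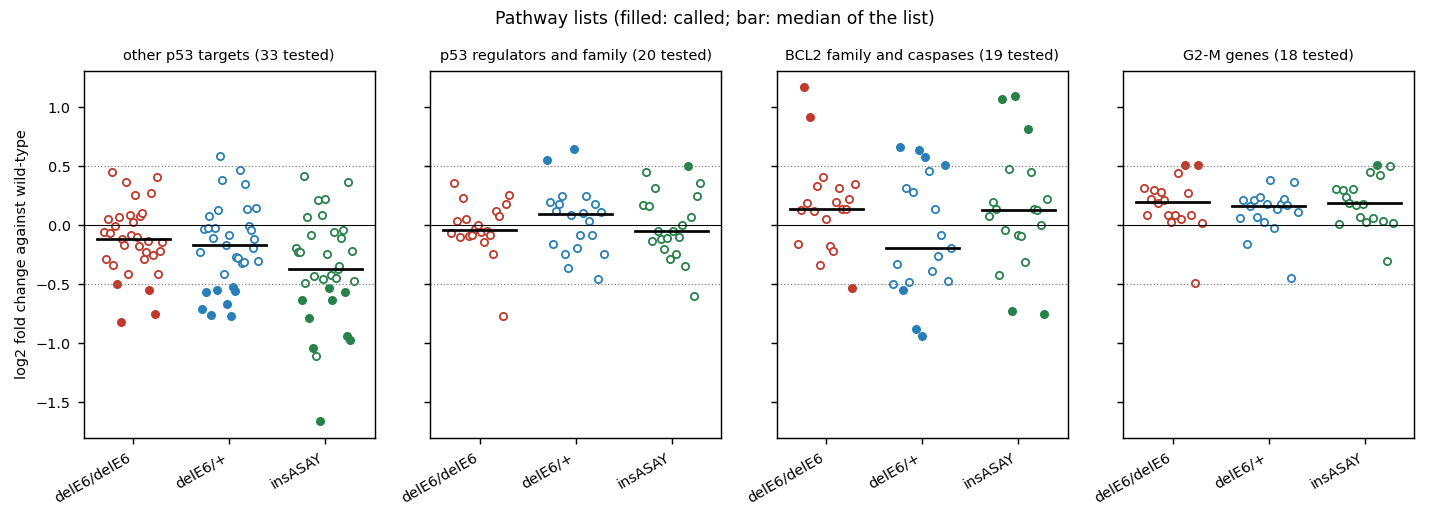
Log2 fold change against wild-type of the tested genes of 4 lists (panels), with 1 point per gene in delE6/delE6 (red), delE6/+ (blue) and insASAY cells (green). Filled points were called, the bar is the median of the list and dotted lines mark 0.5 on the log2 scale. The other p53 targets called in these comparisons all lie below 0, with a median of -0.37 in insASAY cells.

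Of 21 regulators and relatives of p53, 20 were tested. *Trp63*, a p53 paralogue, did not pass the filter on low counts. None of the 20 was called in delE6/delE6 cells by edgeR or DESeq2 (6 had an unadjusted p under 0.05 in edgeR and 5 in DESeq2), 2 rose in delE6/+ cells and 1 rose in insASAY cells, where 12.7%, 13.5% and 21.3% of all tested genes were called, with medians of -0.04, 0.09 and -0.05. *Atm*, the kinase that signals DNA breaks to p53, rose in delE6/+ cells from 52.5 ± 2.96 to 77.1 ± 2.64 CPM (log2 fold change 0.55 ± 0.0687 SE, adjusted p = 5.35e-05), and so did *Hipk2*, another p53 kinase (0.65 ± 0.0992, adjusted p = 0.000281). *Sirt1*, a deacetylase of p53, rose in insASAY cells from 42.0 ± 1.81 to 59.5 ± 4.03 CPM (0.50 ± 0.0752, adjusted p = 0.000157). *Daxx*, a partner of Mdm2, was at -0.36 ± 0.0537 in delE6/+ cells (adjusted p = 0.00025), short of the fold threshold.

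Genes of the G2 and M phases, which p53 is known to repress by way of p21, were also counted. Of 18 genes tested, 2 rose in delE6/delE6 cells (6.12% of all tested genes did), none was called in delE6/+ cells by edgeR or DESeq2 (14 had an unadjusted p under 0.05 in edgeR and 11 in DESeq2) and 1 rose in insASAY cells, where 6.6% and 11.5% of all genes rose. The medians were 0.20, 0.17 and 0.19. *Plk1*, a mitotic kinase, stood at 111 ± 5.26 CPM in wild-type, 158 ± 6.27 in delE6/delE6 (called), 143 ± 1.72 in delE6/+ and 157 ± 2.58 in insASAY cells. *Foxm1*, a transcription factor of mitotic genes, was the other gene called in delE6/delE6 cells and the 1 called in insASAY cells, at 0.51 in both. *Cdk1*, the mitotic kinase partner of cyclin B, was higher in delE6/delE6 (0.44 ± 0.0505, adjusted p = 9.19e-05) and insASAY cells (0.45 ± 0.0504, adjusted p = 2.05e-05), and *Kif20a*, a mitotic kinesin, in insASAY cells (0.43 ± 0.0512, adjusted p = 3.05e-05), all below the fold threshold. *Mybl2*, of the same list, was lower in all 3 lines and was not called. Its log2 fold changes were -0.49 in delE6/delE6, -0.45 in delE6/+ and -0.30 in insASAY cells. The 3 medians share the same wild-type libraries, and a link of the G2 and M genes with the level of *Cdkn1a* was not tested.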

How the data were processed

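Poly(A) RNA was sequenced with a strand-specific kit, per the labels. The authors mapped the reads to mm10 with STAR 2.7.2a and deposited raw counts per gene, without normalization or filter, in 3 columns (unstranded, first strand and opposite strand). The opposite-strand counts (column 4) were used here, since the first-strand column held only 4.11% to 4.78% of the strand-assigned reads. The summary lines that STAR writes (7 of the 8 files have them) did not enter the tests. Of 48440 gene identifiers, 48058 were matched to GENCODE M21. The study used DESeq2 1.40.2.

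Counts were fitted in R 4.3.3 with edgeR 4.0.16 (TMM, filterByExpr at its default minimums of 10 and 15 reads, and a quasi-likelihood model with a term for each of the 4 genotypes, from which 6 comparisons were drawn and Benjamini-Hochberg adjusted over 17049 genes). The standard error is the log2 fold change divided by the root of the F statistic. The steps were tested on simulated data. CPM use TMM-scaled library sizes, and a level per kilobase divides by annotated exon length. With 2 libraries per genotype, an SD rests on 2 values. Depth limits *Trp53cor1* and *Tbxt* most, at under 110 reads per library.

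The members and lists were chosen with earlier results of these data known. The 10 members and *Tbxt* are reported whatever their values. From each list up to 3 genes with the smallest adjusted p against wild-type are named, plus those called in all 3 lines. For *Cdkn1a* and *Trp53*, the 5 genes with at least 2 CPM and the most similar levels are named. *Hipk2*, *Foxm1*, *Mybl2*, *Gadd45a*, *Pmaip1*, *Btg2*, *Ckap2*, *Fbxw7*, *Zfp42*, *Bcl2*, *Bcl2l11*, *Bmf*, *Bik* and *Hrk* were named after their values were seen. Alternatives were DESeq2 1.42.0 (Wald test), edgeR with the size factors of DESeq2, all genes unfiltered, genes with 10 or more reads in each library, the unstranded column, only the 2 genotypes compared, replicate number as a block, and leaving out each library. The same alternatives were applied to the count of other p53 targets, a choice made after seeing the data. Promoters were searched with Python 3.11.15 for the p53 half-site consensus, with the C and the G of its core fixed.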

Additional observations from a re-analysis of the deposited data

Results flagged for a closer look

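*Cdkn1a* moved in opposite directions in different edited lines, and the direct comparisons of those lines were called. Against wild-type it was higher in delE6/delE6 cells and lower in delE6/+ cells, and the log2 difference of delE6/+ from delE6/delE6 cells was -0.89. It was likewise higher in insASAY than in delE6/+ cells, by 0.74 on the log2 scale. *Bax* was above wild-type in insASAY and below it in delE6/+ cells, and the log2 difference between these lines was 0.61. In each case both libraries of the first line lay on the other side of wild-type from both libraries of the second. With 2 libraries per genotype no single library could be tested as an outlier.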

How the results depend on the processing

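Over the alternatives, 761 of 780 recomputed log2 fold changes of the 10 genes kept their direction and their side of the thresholds. In comparisons between edited lines, libraries were left out of these values only for the 2 genotypes compared. No called value reversed. The 4 that reversed were not called in the main analysis: without delE6/delE6 replicate 1, insASAY against delE6/delE6 gave -0.02 for *Trp53* and -0.03 for *Trp53cor1* (0.21 and 0.41 without replicate 2), and delE6/+ against delE6/delE6 gave -0.01 for *Trp53inp1* (0.04 without replicate 2). Without delE6/delE6 replicate 2, delE6/+ against delE6/delE6 gave -0.17 for *Bbc3* (0.37 without replicate 1). The cause was not tested. *Trp53cor1* in delE6/+ against wild-type was also called with no filter (0.69).

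The number of the 10 genes called ranged, over single libraries left out, from 1 to 3 in delE6/delE6 against wild-type (3 without delE6/delE6 replicate 1), from 2 to 4 in delE6/+ against delE6/delE6 (2 without delE6/+ replicate 2) and from 0 to 1 in insASAY against delE6/delE6 (0 without delE6/delE6 replicate 1). That of other p53 targets in delE6/delE6 against wild-type ranged from 1 to 7. Those called against wild-type were lower in every setting except, in delE6/+ cells, without wild-type replicate 2 (1 higher, 5 lower).

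Over all genes, insASAY against delE6/delE6 called 880 genes (475 higher, 405 lower), 582 with DESeq2 (203 higher, 379 lower), 572 with only the 2 genotypes, 1529 without delE6/delE6 replicate 2, and 358 (113 higher, 245 lower) and 669 (271 higher, 398 lower) without insASAY replicates 1 and 2. In delE6/delE6 against wild-type 2167 became 3388 and 1149 without delE6/delE6 replicates 1 and 2.

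With a replicate block the numbers called against wild-type stayed at 1, 2 and 4 in delE6/delE6, delE6/+ and insASAY cells, and no call of the 10 genes changed. Same-numbered libraries did not deviate together (correlations of -0.00971 to 0.0494 over 6 pairs of genotypes), so no shared shift was seen. This cannot show whether same-numbered libraries were prepared together.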

Other observations

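Genes of the BCL2 family and the caspases, which act below p53 in apoptosis, were called in both directions. Of 19 genes tested, 2 rose and 1 fell in delE6/delE6, 4 rose and 3 fell in delE6/+, and 3 rose and 2 fell in insASAY cells, where 12.7%, 13.5% and 21.3% of all tested genes were called. *Mcl1*, an anti-apoptotic member, fell from 729 ± 20.2 CPM to 505 ± 87.4 in delE6/delE6 and 434 ± 7.37 in insASAY cells (SD, n = 2), and stood at 524 ± 11.0 in delE6/+ cells (log2 fold change -0.47, below the fold threshold). *Bcl2l1*, which encodes the anti-apoptotic BCL-XL, fell in delE6/+ cells from 100 ± 1.81 to 68.4 ± 0.695 CPM (edgeR adjusted p = 6.47e-06). *Bok*, a pro-apoptotic member, fell there from 23.7 ± 1.03 to 12.3 ± 0.167 CPM (edgeR adjusted p = 6.47e-06). Among BH3-only genes other than *Bbc3*, *Bcl2l11*, which encodes BIM, rose in delE6/delE6 (log2 fold change 0.92) and insASAY cells (1.07), and *Bmf* rose in delE6/+ (0.64) and insASAY cells (1.10), and *Hrk* rose in delE6/+ cells (0.51), whereas *Bik* fell in delE6/+ (-0.88) and insASAY cells (-0.73) and *Pmaip1*, of the other p53 targets, fell in insASAY cells (-0.63). *Bcl2* rose from 2.25 ± 0.495 CPM to 5.07 ± 0.816 in delE6/delE6 and 3.56 ± 0.753 in delE6/+ cells.

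Among 12837 genes, those whose log2 CPM followed *Cdkn1a* most closely over the 8 libraries were *Lysmd3* (Pearson r = 0.998), *Anapc2* (0.989), *Eloc* (0.988), *Eif4e* (0.987) and *Eif4a1* (0.987). Those closest to *Trp53* were *Zfp473* (0.999), *Irgq* (0.998), *Pik3ca* (0.997), *Ahdc1* (0.996) and *Rbm3* (0.996). These values describe 4 genotypes with 2 libraries each, which share genotype and depth, and are the highest of many, so no p is given.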
